A study of Homo sapiens with 6 samples.

Results

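PD-L1, the product of CD274, was examined together with 9 further genes for surface ligands that restrain immune cells and for membrane proteins tied to PD-L1 stability: PDCD1LG2, CD276, PVR, LGALS9, CD47, NT5E, CMTM6, CMTM4 and CMTM3. The genes were taken by symbol from the count table, which held all 10 of them among its 54261 genes. The RNA came from T24, an established human bladder cancer line. In the tested libraries the cells had stably taken up a lentivirus carrying short hairpin RNA number 2 of those made against MTHFD2, a mitochondrial enzyme of folate metabolism (n = 3). In the control libraries they carried a negative control lentivirus (n = 3). Both vectors brought the fluorescent protein ZsGreen and puromycin resistance, and both kinds of cells were selected with puromycin. The libraries with the hairpin carry 1 hairpin sequence only, and no other treatment is named. The labels do not say whether replicates were separate cultures, so p-values measure the spread between these libraries, which may be technical.

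PD-L1 on a tumour cell binds PD-1 on T cells and dampens their response, and PD-L2, encoded by PDCD1LG2 beside CD274 on chromosome 9, binds the same receptor. CMTM6 and its relative CMTM4 are membrane proteins that hold PD-L1 protein at the cell surface and shield it from lysosomal breakdown, so PD-L1 protein is set after transcription as well as by it. Interferon gamma, acting through JAK kinases and IRF1, is the classical inducer of CD274 transcription in tumour cells.

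The promoter windows shown are those of CD274 and CMTM4, the members called higher with the hairpin. The CD274 call was lost with any single library left out. The CD274 window was chosen for its matches to the element that IRF factors bind. The CMTM4 window has the GC-rich make-up seen in most of the other members. Each is the 250 bases before the transcription start in RefSeq (GRCh38.p14), read 5′ to 3′ on the gene's strand. Capitals mark the interferon response element core (GAAA, then 2 bases of any kind, then GAAA, on either strand) in CD274 at chr9:5450292-5450541, plus strand, and the GC box (GGGCGG on either strand) in CMTM4 at chr16:66696744-66696993, minus strand.
CD274: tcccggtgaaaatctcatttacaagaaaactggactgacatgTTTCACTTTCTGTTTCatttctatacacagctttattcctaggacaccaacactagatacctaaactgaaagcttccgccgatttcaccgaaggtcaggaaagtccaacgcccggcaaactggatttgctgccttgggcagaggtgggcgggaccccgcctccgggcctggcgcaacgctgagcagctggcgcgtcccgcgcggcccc
CMTM4: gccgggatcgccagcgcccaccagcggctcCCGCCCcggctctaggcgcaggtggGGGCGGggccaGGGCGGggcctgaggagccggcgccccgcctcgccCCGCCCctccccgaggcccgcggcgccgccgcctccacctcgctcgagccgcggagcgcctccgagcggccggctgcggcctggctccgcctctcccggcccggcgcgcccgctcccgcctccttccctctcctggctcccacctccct

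CD274 held 2 overlapping matches to the interferon core, lying between 208 and 193 bases before the start, and 1 match to the STAT site TTCNNNGAA between 125 and 117 bases before it. An interferon core was present in 3.02% and a STAT site in 6.57% of the 35116 promoter windows of that length. None of the other members with a RefSeq window (9 of 10 have one) matched either motif. CMTM4 had 4 GC boxes. At least 1 was present in 42.6% of windows, and the share of windows with 4 was not counted. CMTM4 had no match to the AP-1 site TGANTCA, the E-box CACGTG, the FOXO site GTAAACA or the NF-kB consensus. The PVR window had no match to any of these 7 motifs. GC content was 54.8% in the CD274 window and 83.2% in that of CMTM4, with a median of 58.0% over all windows. A match is a run of letters and says nothing of binding in these cells.

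Library totals ran from 18452506 to 19896302 counts with the hairpin and from 17801990 to 19978392 in the controls, so a count of 3, which a count of 0 still allows, equals 0.149 to 0.171 CPM (counts scaled to library totals after TMM adjustment). MTHFD2 itself held 538, 667 and 686 counts with the hairpin and 3241, 3613 and 3417 in the controls. Among markers of the labelled cell type, the keratins KRT7, KRT8 and KRT18 were abundant, while EPCAM, CDH1, GATA3, KRT19 and UPK2 held at most 11 counts in any library and UPK3A none. The 13 genes of that list summed to 1012 to 1331 CPM with the hairpin and 2116 to 2523 CPM in the controls. Of 7 tested, 2 fell, KRT8 (log2 fold change -1.27 ± 0.13, SE) and KRT18 (-0.89 ± 0.13). The 2 that rose were FOXA1 (0.53 ± 0.17) and UPK1A. UPK1A held 20, 23 and 37 counts with the hairpin and 6, 8 and 9 in the controls. No control library reached the level of the low-count filter, so UPK1A entered the test only through the hairpin libraries. Leukocyte markers were low: 3 of 12 were at 0 throughout and PTPRC held at most 4 counts. CD68 held 21 to 46 counts and ITGAM at most 19. The list summed to 1.74 to 3.78 CPM with the hairpin and 2.60 to 3.70 CPM in the controls. Fibroblast markers rose in 5 of 7 tested cases, where 9.71% of all genes tested were higher and 7.58% lower. Their 12 genes, none at 0 throughout, summed to 51.6, 13.1 and 43.7 CPM in hairpin replicates 1, 2 and 3. In the controls the sum was between 7.81 and 10.6 CPM. COL1A2, called higher, overlapped, with hairpin replicate 2 (1.56 CPM) below control replicate 2 (1.66 CPM). LUM, tested but not called, held 9, 8 and 8 counts in the controls, all below the filter level. It too entered the test only through the hairpin libraries. Endothelial markers summed to 16.5 to 21.6 CPM with the hairpin and 17.6 to 21.4 CPM in the controls, most of it from ESAM. Of 2 tested, CDH5 fell, with 16, 15 and 8 counts with the hairpin and 27, 33 and 24 in the controls (-1.18 ± 0.34, SE; edgeR adjusted p = 0.0333). Since fibroblasts make several of the ligands described here, values with hairpin replicate 2 alone are given beside the members' calls. In that comparison the hairpin arm is 1 library assumed to vary like the controls, which alone give the spread, so it is given as a value with no p. In bulk RNA, a change in the share of cells of a type and a change in RNA per cell cannot be told apart.

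**Figure D1:**
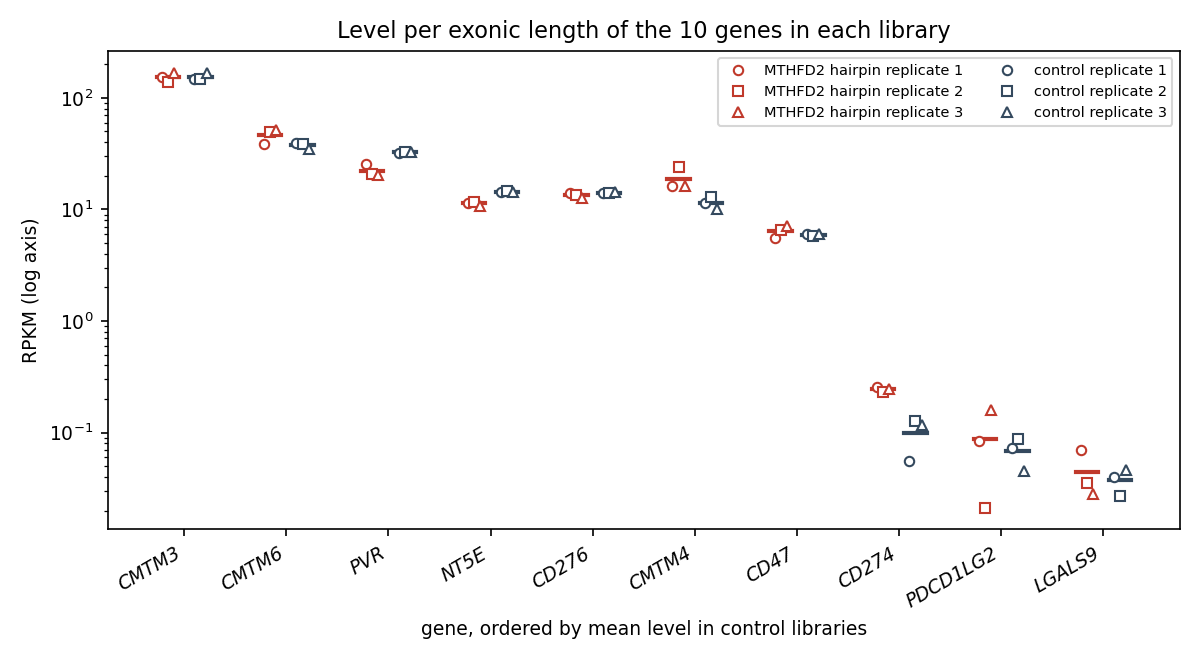
Level of each gene per kilobase of exon (RPKM, log axis) in the 3 MTHFD2 hairpin libraries (red, left of each pair) and the 3 control libraries (dark, right), with a symbol for each library and a bar for the group mean. The control means run from 154 RPKM for CMTM3 to 0.0379 RPKM for LGALS9, and CD274, PDCD1LG2 and LGALS9 stand far below the other 7 genes.

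Per exonic length, the members spanned a wide range in T24 cells. CMTM3 was the most abundant, at 154 ± 14.5 RPKM with the hairpin and 154 ± 11.5 RPKM in the controls (SD, n = 3 each). In the control libraries it was followed by CMTM6 (37.7 ± 2.45 RPKM), PVR (32.5 ± 0.725), NT5E (14.4 ± 0.0944), CD276 (14.1 ± 0.195), CMTM4 (11.4 ± 1.43) and CD47 (5.95 ± 0.141). The ranges of neighbouring genes in that order did not overlap down to CD47. CD274 (0.0995 ± 0.0384 RPKM), PDCD1LG2 (0.0684 ± 0.0218) and LGALS9 (0.0379 ± 0.00975) closed the order, and each of these overlapped its neighbour. With the longest transcript in place of total exon length, CD276 stood above NT5E and LGALS9 above PDCD1LG2.

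In the hairpin libraries CMTM4 averaged 18.8 ± 4.56 RPKM and stood in the fourth place, against the sixth in the controls, above CD276 (13.3 ± 0.588) and NT5E (11.3 ± 0.459). Of 18153 genes with a length and at least 1 control count, 98.6% lay below CMTM3, 92.5% below CMTM6 and 91.3% below PVR in the control libraries. CD274 stood above 22.3% of them, PDCD1LG2 above 19.6% and LGALS9 above 15.2%. The PD-L1 stabilisers were thus far more abundant than the transcript of the protein they hold. CMTM6 per CD274, both in RPKM, was 152, 210 and 209 in the hairpin libraries and 711, 306 and 300 in the controls. The groups did not overlap. CMTM4 per CD274 was 64.1, 103 and 65.1 with the hairpin and 206, 102 and 86.0 in the controls, where they did overlap. These ratios carry the counting error of CD274.

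**Figure D2:**
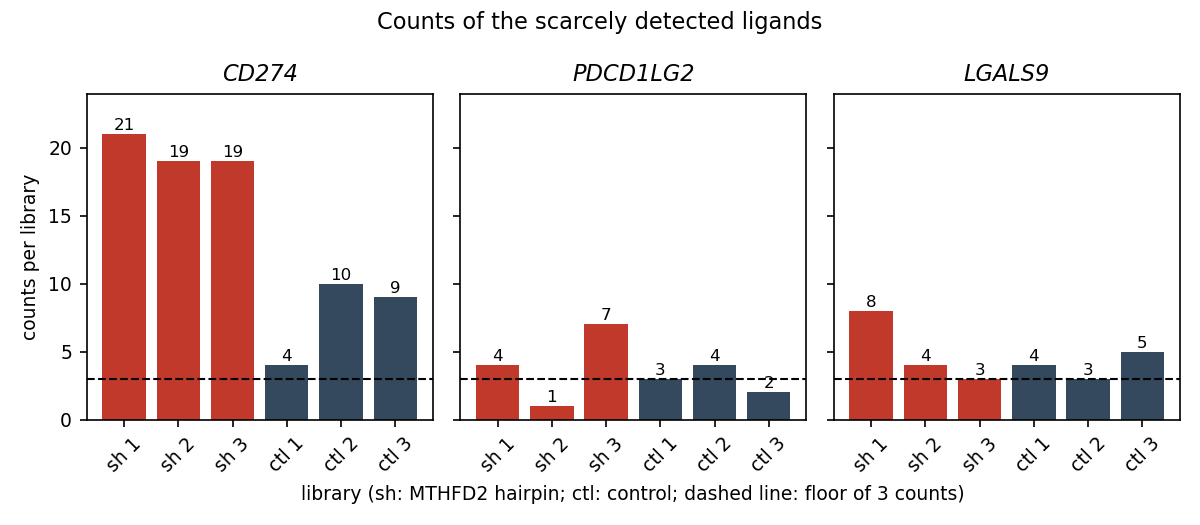
Raw counts of CD274, PDCD1LG2 and LGALS9 in each library, MTHFD2 hairpin libraries in red on the left and control libraries in dark on the right; the dashed line marks the floor of 3 counts. CD274 held 19 to 21 counts in the hairpin libraries and 4 to 10 in the controls, and the other ligands stayed at or below 8 counts in every library.

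CD274 lies on the plus strand of chromosome 9 (5450503 to 5470566 in GRCh38, the build of all gene positions given here), and its level was higher in each library with the hairpin. Its counts were 21, 19 and 19 with the hairpin and 4, 10 and 9 in the controls. The hairpin libraries lay close together, at 0.958 to 1.04 CPM, and the control libraries were spread from 0.228 to 0.520 CPM, with control replicate 1 the lowest. No control library reached the level that the low-count filter asks for, 0.523 CPM in at least 3 libraries, so CD274 entered the test only through the hairpin libraries. Pooled over libraries, 59 counts with the hairpin and 23 in the controls give a ratio of 2.43, with an exact counting interval of 1.48 to 4.13. Intervals of this kind allow for counting error alone and leave out the spread between libraries. They may be too narrow even for counting error, since a molecule copied by PCR can be read repeatedly and no molecular tags are named. On the log2 scale the hairpin libraries were higher by 1.27 ± 0.39 (SE; 95% interval 0.43 to 2.12; edgeR adjusted p = 0.0420). With any single library left out the log2 fold change lay between 1.00 and 1.47, and the call was lost each time (edgeR adjusted p = 0.0686 to 0.176). DESeq2, which called 18.7% of the genes it gave an adjusted p, gave CD274 an adjusted p = 0.127. With hairpin replicate 2 alone, the hairpin library with the least fibroblast marker RNA, the value was 1.20.

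PDCD1LG2 (chromosome 9, 5510570 to 5571254, plus strand) stayed at the floor. It held 4, 1 and 7 counts with the hairpin and 3, 4 and 2 in the controls, and above 3 counts stood 2 hairpin libraries and 1 control library. The hairpin libraries with the most PDCD1LG2 were replicates 3 and 1, those with the most fibroblast marker RNA, and the part of that RNA was not tested. LGALS9 (chromosome 17, 27629798 to 27649560, plus strand), which encodes the TIM-3 ligand galectin-9, held 8, 4 and 3 counts with the hairpin and 4, 3 and 5 in the controls. Neither gene passed the low-count filter. The ratio of pooled CPM was 1.26 for PDCD1LG2 (exact counting interval 0.489 to 3.40) and 1.19 for LGALS9 (0.518 to 2.77), so a 2-fold rise lay within counting error for both. LGALS9 has near-identical copies, LGALS9B and LGALS9C, which were listed at 0 counts.

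Of the 8 members tested, 2 rose and 2 fell, where 17.3% of all 13896 genes tested passed in either direction (9.71% higher, 7.58% lower). Leaving out CD274, which the filter admitted through 1 group, 3 of 7 passed. Of those 7, the groups did not overlap for CMTM4, PVR, NT5E and CD276, against 39.1% of all genes tested (20.1% higher, 19% lower).

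**Figure D3:**
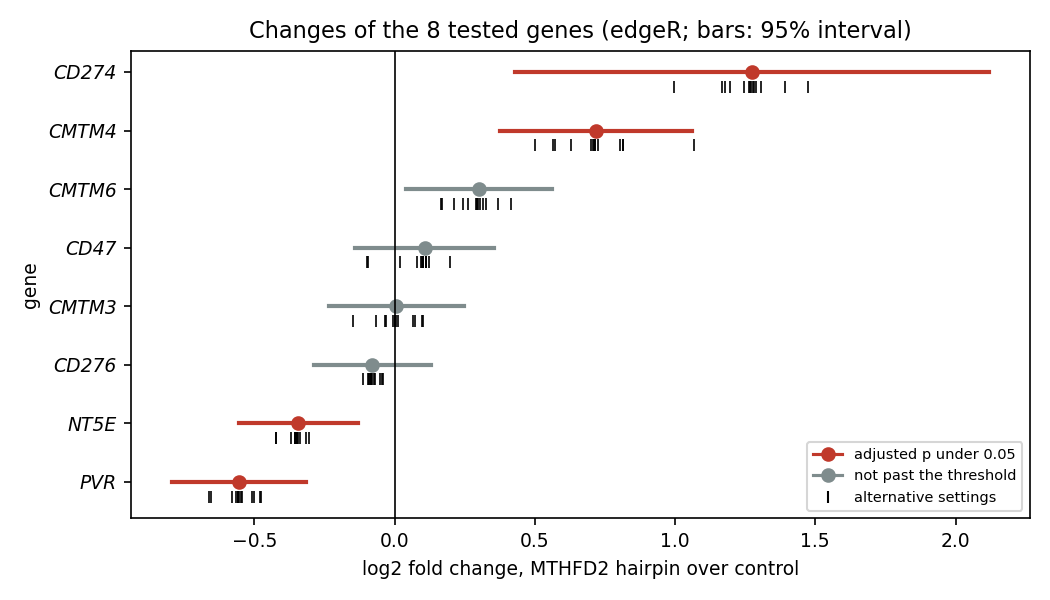
Log2 fold change of the 8 tested members, MTHFD2 hairpin over control, with 95% intervals from edgeR; red marks an adjusted p under 0.05 and the ticks below each bar give the estimate under each alternative setting. CD274 has the widest interval (0.43 to 2.12), CMTM4 lies at 0.72 and PVR at -0.55, and CMTM3, CD47 and CD276 lie near 0.

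Among the PD-L1 stabilisers, CMTM4 rose, CMTM6 was higher without passing the test, and CMTM3, their most abundant relative here, lay near equal. CMTM4 (chromosome 16, 66614750 to 66696707, minus strand) held 2658, 3881 and 2443 counts with the hairpin and 1629, 2010 and 1530 in the controls. Hairpin replicate 2 was the highest, and the lowest hairpin library (131 CPM) exceeded the highest control (105 CPM). The mean was 153 ± 37.0 CPM with the hairpin and 92.9 ± 11.6 CPM in the controls (SD, n = 3 each), with a log2 fold change of 0.72 ± 0.16 (SE; edgeR adjusted p = 0.0109). The call held when any single library was left out (log2 fold change 0.50 to 0.82; edgeR adjusted p = 0.0105 to 0.0480). With hairpin replicate 2 alone the value was 1.07.

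CMTM6 (chromosome 3, 32481312 to 32503408, minus strand) held 3434, 4287 and 4264 counts with the hairpin and 3055, 3292 and 2902 in the controls. On the CPM scale hairpin replicate 1 (171 CPM) lay within the control range of 154 to 174 CPM, and hairpin replicates 2 and 3 lay above it (216 and 228 CPM). The estimate was 0.30 ± 0.12 on the log2 scale (SE; 95% interval 0.04 to 0.56; edgeR adjusted p = 0.103). Without hairpin replicate 1 it was 0.42 and passed (edgeR adjusted p = 0.0259). With trends on GC content and length removed it was 0.17 and did not pass (edgeR adjusted p = 0.161), and with hairpin replicate 2 alone it was 0.37. The exons of CMTM6 share 324 bases with CMTM7 on the opposite strand, and whether counting used strand is not given in the sources used here.

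CMTM3 (chromosome 16, 66603874 to 66613892, plus strand) held 9866, 8750 and 9945 counts with the hairpin and 8182, 8925 and 9946 in the controls, and the groups overlapped. Its log2 fold change was 0.01 ± 0.11 (SE; 95% interval -0.23 to 0.25; edgeR adjusted p = 0.980). Within a library, CMTM4 per CMTM6 in RPKM was 0.421, 0.492 and 0.311 with the hairpin and 0.290, 0.332 and 0.287 in the controls, so hairpin replicate 3 fell inside the control range. Of the 6 remaining genes of the CMTM family, 4 were tested and none passed by edgeR or by DESeq2. Among these, 2, CMTM1 and CMTM7, had an unadjusted edgeR p under 0.05, for which no share over all genes was computed. CMTM1 was named after its value was seen. The most abundant of the 4 were CMTM7 (0.38 ± 0.15, SE) and CMTM8 (0.20 ± 0.17). CMTM7 was at 0.18 without hairpin replicate 3, and it passed with no low-count filter (0.37; edgeR adjusted p = 0.0387) and with trends on GC content and length removed (0.41; edgeR adjusted p = 0.0478). CMTM8 was at 0.04 without control replicate 2, at 0.13 without hairpin replicate 3 and at 0.36 without control replicate 3. With the trends removed it was at 0.37, and it passed in none of these 4 fits. With the trends removed and a block for replicate number added, CMTM8 was again at 0.37 and passed (edgeR adjusted p = 0.0308).

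PVR and NT5E fell. PVR (chromosome 19, 44643798 to 44663583, plus strand) encodes CD155, which engages the inhibitory receptors TIGIT and CD96 and the activating receptor CD226 on T and NK cells. It held 1795, 1448 and 1339 counts with the hairpin and 1957, 2226 and 2187 in the controls. Every hairpin library (71.7 to 89.2 CPM) lay below every control library (112 to 116 CPM), and replicate 1 was the highest of the hairpin libraries. The mean was 78.0 ± 9.77 CPM with the hairpin and 114 ± 2.55 CPM in the controls (SD, n = 3 each), a log2 fold change of -0.55 ± 0.11 (SE; edgeR adjusted p = 0.00708). The call held with any single library left out (-0.66 to -0.50; edgeR adjusted p = 0.00449 to 0.0292). With hairpin replicate 2 alone the value was -0.66.

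NT5E (chromosome 6, 85449584 to 85495791, plus strand) encodes CD73, the surface enzyme that turns AMP into immunosuppressive adenosine. It held 1045, 1052 and 915 counts with the hairpin and 1138, 1263 and 1224 in the controls. The hairpin libraries (49.0 to 53.0 CPM) and the control libraries (64.9 to 65.7 CPM) did not overlap, and the controls varied little among themselves. The estimate was -0.34 ± 0.10 on the log2 scale (SE; edgeR adjusted p = 0.0321). Leaving out control replicate 1, 2 or 3 ended the call (edgeR adjusted p = 0.113, 0.102 and 0.0951), while the log2 fold change stayed between -0.37 and -0.32 in all 6 fits that left out a library. With hairpin replicate 2 alone it was -0.30.

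CD276 and CD47 did not pass. CD276 (chromosome 15, 73683966 to 73714518, plus strand), which encodes the B7 family ligand B7-H3, held 1549, 1468 and 1316 counts with the hairpin and 1354, 1494 and 1492 in the controls. On the CPM scale the hairpin libraries (70.5 to 77.0) lay just below the controls (77.2 to 79.2), a separation of less than 1 CPM at its narrowest. The estimate was -0.08 ± 0.10 on the log2 scale (SE; 95% interval -0.29 to 0.13; edgeR adjusted p = 0.592). CD47 (chromosome 3, 108043094 to 108091862, minus strand), whose product binds SIRP alpha on macrophages and holds back phagocytosis, held 924, 1062 and 1097 counts with the hairpin and 872, 916 and 933 in the controls. The groups overlapped, with a log2 fold change of 0.11 ± 0.11 (SE; 95% interval -0.14 to 0.36; edgeR adjusted p = 0.538). For both genes the interval leaves out a 1.5-fold change in either direction, which is 0.58 on the log2 scale.

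Genes around the members were read from 7 lists. The median log2 fold change over all genes tested was 0.01, and 17.3% passed (9.71% higher, 7.58% lower). Among regulators of CD274 transcription, all 19 listed genes were tested, 5 fell, none rose, and the median was -0.05. DESeq2 gave 5 lower and 0 higher, where it called 1277 of all genes lower and 1346 higher. At an unadjusted edgeR p under 0.05 there were 6 lower and 0 higher, and the share of all genes at that cut-off was not computed. These counts come from the same libraries at other cut-offs and are not further evidence. Among the 5 that fell, JUN, an AP-1 subunit, had the largest change, with 1597, 1372 and 1379 counts in the hairpin libraries and 2268, 2230 and 2228 in the controls (-0.71 ± 0.10, SE; edgeR adjusted p = 0.00143). IRF1, the interferon factor that induces CD274, held 415, 351 and 403 counts with the hairpin and 528, 533 and 574 in the controls (-0.56 ± 0.12; edgeR adjusted p = 0.00995). The IRF1 groups did not overlap, and both calls held with any library left out. The NF-kB subunits RELA (-0.41 ± 0.12) and NFKB1 (-0.38 ± 0.11) and, named after its value was seen, MYC (-0.38 ± 0.10) were the remaining falls. RELA lost its call without any library but hairpin replicate 1 (edgeR adjusted p up to 0.136), NFKB1 without any control library or hairpin replicate 3 (up to 0.122) and MYC without control replicate 1, control replicate 3 or hairpin replicate 2 (up to 0.102). Receptor and kinase genes of the interferon gamma pathway did not pass. IFNGR2, a subunit of the interferon gamma receptor, held 180, 168 and 152 counts with the hairpin and 589, 150 and 161 in the controls (-0.96 ± 0.55, SE; edgeR adjusted p = 0.260). Control replicate 1 stood far above all other libraries, and without it the value was 0.05. IFNGR1 was at -0.05 ± 0.12, JAK1 at -0.05 ± 0.11 and JAK2 at -0.01 ± 0.15 (SE); these 4 genes were named after their values were seen.

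Enzymes and adaptors that act on PD-L1 protein went both ways. Of 19 tested out of 21 listed, 2 rose and 2 fell, with a median of 0.02. HIP1R, which sends PD-L1 to the lysosome, rose by 0.65 ± 0.13 (SE; edgeR adjusted p = 0.00746), with 497, 508 and 381 counts in the hairpin libraries and 249, 313 and 274 in the controls. This call held with any library left out. PRKAA1, the alpha 1 catalytic subunit of AMP kinase, rose by 0.37 ± 0.12. CDK4, a G1 cyclin-dependent kinase, was at -0.41 ± 0.13 and STT3A, a catalytic subunit of the enzyme for N-glycosylation, at -0.31 ± 0.10, both past the threshold. With no low-count filter STT3A did not pass (edgeR adjusted p = 0.0663). PRKAA1 and STT3A lost the call without any control library or hairpin replicate 2 (edgeR adjusted p up to 0.192 and 0.140), and CDK4 without control replicate 1 or 3 or hairpin replicate 1 or 2 (up to 0.180). With trends on GC content and length removed PRKAA1 was at 0.19 and did not pass (edgeR adjusted p = 0.103).

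**Figure D4:**
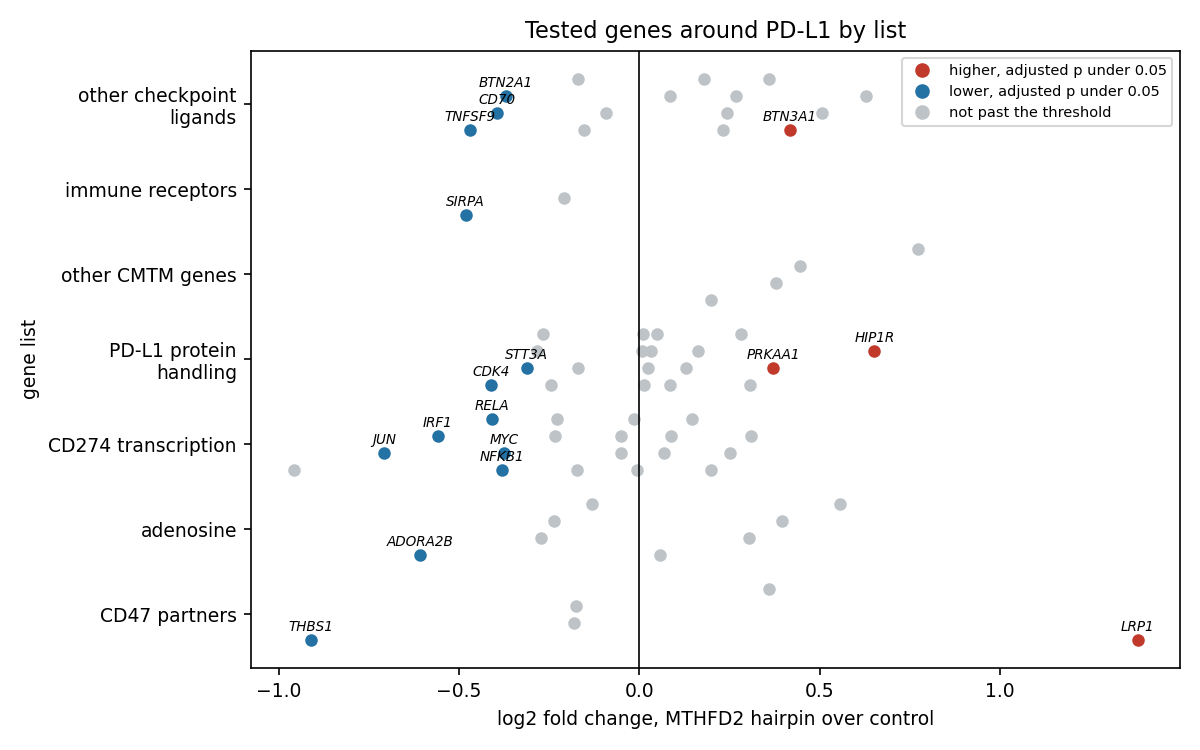
Log2 fold changes, MTHFD2 hairpin over control, of every tested gene of 7 lists around PD-L1; red and blue mark genes higher and lower at an edgeR adjusted p under 0.05 and grey the rest. The 5 calls in the list on CD274 transcription lie left of 0, while LRP1 (1.38) and THBS1 (-0.91) lie farthest out among the calls.

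Among 28 further checkpoint ligands, 15 were tested, 1 rose and 3 fell, with a median of 0.18. The T cell costimulatory ligands TNFSF9 (4-1BB ligand, -0.47 ± 0.13) and CD70 (-0.40 ± 0.11) fell, as did the butyrophilin gene BTN2A1 (-0.37 ± 0.12). BTN3A1, a butyrophilin that takes part in activation of gamma delta T cells, rose by 0.42 ± 0.13. Each of these 4 calls was lost without control replicate 1, control replicate 3 or hairpin replicate 2. Those of CD70, BTN2A1 and BTN3A1 were also lost without control replicate 2, and that of BTN2A1 without hairpin replicate 3. The highest edgeR adjusted p was 0.127 for TNFSF9, 0.115 for CD70, 0.136 for BTN2A1 and 0.166 for BTN3A1. With trends on GC content and length removed TNFSF9 was at -0.30 and CD70 at -0.21, both still past the threshold. NECTIN2, which shares receptors with PVR and was named after its value was seen, did not pass (0.18 ± 0.11; edgeR adjusted p = 0.256). The B7 ligands CD80 and CD86 held at most 1 count in any library and VTCN1 none. HLA-E and HLA-G were listed at 0 throughout. HLA-E is made by nearly all nucleated cells, so no level is drawn from these entries.

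Of 13 listed receptors for the members' products and for other checkpoint ligands, 2 passed the low-count filter. PDCD1, CTLA4 and ICOS were at 0 in all libraries and TIGIT held 2 counts over all 6. SIRPA, the receptor of CD47, fell by 0.48 ± 0.11 on the log2 scale (SE; edgeR adjusted p = 0.0123), to 154 CPM with the hairpin, against 215 CPM in the controls. Without control replicate 1 its adjusted p was 0.0531. With leukocyte markers low, these SIRPA counts stood beside at most 4 counts of PTPRC and 21 to 46 counts of CD68.

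Of the 5 listed partners of CD47 all were tested, 1 rose and 1 fell (median -0.18), and these had the largest changes among the calls in the 7 lists. LRP1, the phagocytic receptor that recognises calreticulin and that binds many other ligands, held 518, 719 and 419 counts with the hairpin and 199, 231 and 171 in the controls. It rose by 1.38 ± 0.18 (SE; edgeR adjusted p = 0.000861). THBS1, which encodes thrombospondin-1, a secreted ligand of CD47, held 1839, 1382 and 1105 counts with the hairpin and 2610, 2778 and 2273 in the controls and fell by 0.91 ± 0.15 (edgeR adjusted p = 0.00294). Both calls held with any library left out. Fibroblasts express both genes, and whether fibroblast RNA has a part in their values was not tested. With hairpin replicate 2 alone, the hairpin library with the least fibroblast marker RNA, LRP1 was at 1.74 and THBS1 at -0.99.

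In the adenosine list 8 of 14 genes were tested and 1 passed. ADORA2B, the low-affinity adenosine receptor, held 1048, 897 and 925 counts with the hairpin and 1270, 1379 and 1505 in the controls. It fell by 0.61 ± 0.11 (SE; edgeR adjusted p = 0.00360), a call that held with any library left out. ENTPD1 (CD39), which supplies NT5E with AMP, held at most 9 counts in a library.

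Likeness to CD274, CMTM4 and PVR was measured as the mean absolute difference, over the 6 libraries, of log2 CPM centred on each gene's own mean, among genes of at least 2 log2 CPM. Nearest to CMTM4 were ARHGAP32 (0.0322) and ARHGEF12 (0.0326), followed by KIAA1958 (0.0375), where the median of 10576 genes was 0.369. Like CMTM4, all 3 had their highest value in hairpin replicate 2. Nearest to PVR were PABPC4 (0.0220), a cytoplasmic poly(A) binding protein, NFKB2 (0.0342), an NF-kB subunit, and GALNS (0.0374), a lysosomal sulfatase, with a median of 0.282. CD274 had less close neighbours, ELL3 (0.144), SLC29A4 (0.152) and RECK (0.156), with a median of 0.592 among 10577 genes. With 4 to 21 counts in a library, CD274 lies below the cut-off of 2 log2 CPM, so no gene at its level was compared. Its distances carry its counting error. All of the distances describe the libraries and reflect the split between the groups as well as differences within them.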

How the data were processed

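RNA sequencing counts of 6 T24 libraries were used, grouped by title. The authors deposited raw counts per gene symbol in 1 table. Per the submitters' processing notes HISAT2 2.0.4 and GRCh38 were used; the counting tool, annotation and strandedness are not given in these sources. The hairpin and control libraries were compared in edgeR 4.0.16 (R 4.3.3) with its filterByExpr filter, TMM scaling and the robust quasi-likelihood F test, and p-values were adjusted by Benjamini-Hochberg over the 13896 genes tested, at a threshold of 0.05. A standard error is the log2 fold change divided by the square root of F. Log2 CPM used a prior count of 2. RPKM used total exonic length from GENCODE release 29, matched for 35359 symbols, and promoters came from RefSeq. The fits were tested on simulated data. Replicates differed by more than counting noise (chi-square divided by degrees of freedom between 2.56 and 31.6), so each library was 1 sample. Alternatives were RLE scaling, DESeq2 1.42.0, other filters, the replicate block, removal of GC content and length trends (92.4% of tested genes had values), left-out libraries and a threshold of 0.01.

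The members and lists were chosen with earlier results of these data known. Named genes are the 10 members, up to 4 genes past the threshold per list, or 2 of the most abundant where none passed, and the 3 nearest genes to CD274, CMTM4 and PVR. VSIR was matched under its older symbol. The values of 1 gene counted in the lists are not reported here.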

Additional observations from a re-analysis of the deposited data

How the results depend on the processing

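CD274 kept its direction but lost its call with DESeq2 (1.28) and with no low-count filter (1.27, adjusted p = 0.0569 by edgeR). The call was also lost at the threshold of 0.01 (1.27) and in all 6 fits leaving out a library (1.00 to 1.47). PVR passed under every setting for which calls are given (-0.66 to -0.48), and CMTM4 (0.50 to 0.82) under all but the threshold of 0.01 (0.72). NT5E lost its call at that threshold (-0.34) and without any 1 control library (range over left-out libraries -0.37 to -0.32). CMTM6 passed with the replicate block (0.29), with the block and trend removal (0.17) and without hairpin replicate 1 (range over left-out libraries 0.21 to 0.42). With trend removal and no block it was 0.17 and did not pass (adjusted p = 0.161 by edgeR). CMTM3 turned sign near 0 with RLE scaling (-0.00017), DESeq2 (-0.0057), hairpin replicate 2 alone (-0.15) and left-out libraries (-0.066 to 0.072). CD47 turned to -0.095 with GC content and length trends removed and to -0.097 with the block added. The cause was not tested in these cases, and fits without a library hold fewer samples. With hairpin replicate 2 alone only the controls give the spread, so calls from that fit are not given. Its values were 1.20 (CD274), 1.07 (CMTM4), 0.37 (CMTM6), -0.30 (NT5E) and -0.66 (PVR).

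Of all genes, 2402 passed, against 749 at the threshold of 0.01, 3649 with trends removed, 5062 with the replicate block, 5839 with both, 4432 with hairpin replicate 2 alone and 986 to 2645 with a library left out (1003 without control replicate 1, 986 without control replicate 3, 1469 without hairpin replicate 2). With trends removed 1485 were higher and 2164 lower, against 1349 and 1053. Of the list genes 17 passed, against 6, 24, 33, 38, 28 and 6 to 18 under the same settings (6, 10, 7 and 9 without control replicate 1, 2 or 3 or hairpin replicate 2). Same-numbered replicates of the 2 groups deviated together with r = -0.02, 0.30 and 0.35. Hairpin replicates 2 and 3 each correlated best with the control of the same number, and hairpin replicate 1 with control replicate 3 (0.05). These values do not settle whether the numbers pair the libraries. With the block CMTM7 also passed, at 0.37. With the longest transcript the control levels were 22.5 (CD276), 34.4 (PVR), 13.2 (CMTM4), 43.1 (CMTM6), 209 (CMTM3), 0.0695 (LGALS9), 7.20 (CD47) and 16.6 RPKM (NT5E). Depth limits CD274, PDCD1LG2 and LGALS9, where counting error alone spans more than a 2-fold range.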
